A study of Mus musculus with 8 samples.

Results

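Of the 45101 probe sets on the array, 932 carried several gene symbols in the platform's gene table, and 364 of these were described here. A probe set is the group of short oligonucleotides that gives 1 expression value per array, and several symbols mean that its oligonucleotides were annotated to more than 1 gene. The level of a single copy therefore cannot be told apart from the levels of the others. The 364 were those whose log2 values spanned at least 0.01 between the lowest and the highest of the 8 arrays, and the other 568 multi-symbol probe sets spanned less. The members were thus chosen by the number of listed symbols and by that measured span, which is used only as a description. It ran from 0.0119 to 6.42 log2 units with a median of 0.52. Just inside the limit lay the probe sets of Gm5621 and Rpl10 (0.0119) and of Gm13430 and Sumo2 (0.0145), and just outside lay those of Gm15793, Gm32899, Gm11425 and Rpl12 (0.00962) and of Rps6-ps4 and Rps6 (0.00778). The span did not look at genotype. The 2 WT arrays alone differed by 0.01 or more in 328 of the 364, and 4 members had no such difference between the 2 arrays of any group.

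The samples were mouse embryonic stem cells of 4 genotypes, with 2 biological replicates and so 2 arrays each. WT cells were Jmjd1a+/+; Jmjd1b+/+, Jmjd1a-KO cells were Jmjd1adelta/delta; Jmjd1b+/+, Jmjd1b-KO cells were Jmjd1a+/+; Jmjd1bdelta/delta, and double-KO cells were Jmjd1adelta/delta; Jmjd1bdelta/delta. All grew with leukemia-inhibiting factor, knockout serum replacement and fetal calf serum, and the treatment text of every sample names 800 nM OHT (4-hydroxytamoxifen), which deletes the conditional Jmjd1b allele through the MerCreMer recombinase. The double-KO cells descend from a single Jmjd1a-deficient line into which that allele was introduced. The labels do not tie a replicate to a named line and give no untreated or recombinase control, so genotype, line and treatment history cannot be told apart.

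JMJD1A and JMJD1B, also called KDM3A and KDM3B, are demethylases that remove methyl groups from lysine 9 of histone H3, a mark of silenced chromatin. Many mouse gene families exist as clusters of near-identical copies, and in embryonic stem cells clusters such as Zscan4, the Eif1a-like genes and the Pramel genes are known for their activity in the 2-cell embryo and in rare cells that resemble it. Other families, such as Fthl17, Ott and Xlr on the X chromosome, are best known from the germline. Housekeeping genes, above all those of ribosomal proteins, have many processed pseudogenes, so a probe set for the parent gene often carries several symbols although only 1 gene is active.

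The members were thus of several kinds and were not all multi-copy families. In 152 a named gene was joined by uncharacterised Gm, Rik or LOC symbols, in 133 the symbols shared a stem, in 17 every symbol was uncharacterised, in 8 a small RNA was listed with its host or neighbour, and in 54 the symbols were unlike each other. The listed genes lay on different chromosomes in 191 members, were neighbours in 88, overlapped in 36, lay farther apart on 1 chromosome in 26, and had fewer than 2 located copies in 23. A pseudogene was listed in 182 members. The 364 held 709 symbols in 266 combinations, 260 had exactly 2 symbols, and the largest had 18. The members had a median level of 10.05 log2 units, against 8.84 for the 10405 measured probe sets with 1 symbol. A measured span was reached by 39.1% of multi-symbol probe sets, by 29.8% of those with 1 symbol and by 7.96% of those with none.

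Promoters from 4 clusters that rose in double-KO are shown because they let the copies behind 1 value be compared. A promoter here is the 300 bases from 250 before to 50 after the annotated start, from RefSeq on GRCm38.p6, written 5′ to 3′ along the gene. In the first 3 the capitals mark each CG pair, and in Ott and Luzp4 they mark the bases at which these copies differ.
Gm4340 (chr10:104193792-104194091, plus strand): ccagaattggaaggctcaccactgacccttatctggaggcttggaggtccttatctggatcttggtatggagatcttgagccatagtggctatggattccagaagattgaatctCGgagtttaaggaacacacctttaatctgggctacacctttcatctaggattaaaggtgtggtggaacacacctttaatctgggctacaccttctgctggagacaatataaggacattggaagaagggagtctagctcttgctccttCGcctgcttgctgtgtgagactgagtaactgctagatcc
Fthl17b (chrX:8962926-8963225, minus strand): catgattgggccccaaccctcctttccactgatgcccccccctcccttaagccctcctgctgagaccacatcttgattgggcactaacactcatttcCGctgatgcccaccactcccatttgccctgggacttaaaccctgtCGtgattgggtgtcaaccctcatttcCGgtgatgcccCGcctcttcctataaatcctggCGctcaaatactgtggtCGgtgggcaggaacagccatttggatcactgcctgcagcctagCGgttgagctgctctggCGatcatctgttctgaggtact
Zscan4c (chr7:11005495-11005794, plus strand): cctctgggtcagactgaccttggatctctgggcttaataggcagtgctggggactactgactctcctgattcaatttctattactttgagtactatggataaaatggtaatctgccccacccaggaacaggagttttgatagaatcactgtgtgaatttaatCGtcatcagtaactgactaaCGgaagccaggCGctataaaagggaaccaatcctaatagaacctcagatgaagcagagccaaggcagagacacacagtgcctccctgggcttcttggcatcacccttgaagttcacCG
Ott (chrX:149097702-149098001, plus strand): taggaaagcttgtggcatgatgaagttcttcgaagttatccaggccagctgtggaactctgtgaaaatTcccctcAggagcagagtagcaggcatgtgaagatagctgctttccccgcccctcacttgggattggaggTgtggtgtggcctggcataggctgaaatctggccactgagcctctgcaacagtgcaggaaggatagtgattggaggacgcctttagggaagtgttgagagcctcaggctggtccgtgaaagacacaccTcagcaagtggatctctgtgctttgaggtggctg
Luzp4 (chrX:148882326-148882625, plus strand): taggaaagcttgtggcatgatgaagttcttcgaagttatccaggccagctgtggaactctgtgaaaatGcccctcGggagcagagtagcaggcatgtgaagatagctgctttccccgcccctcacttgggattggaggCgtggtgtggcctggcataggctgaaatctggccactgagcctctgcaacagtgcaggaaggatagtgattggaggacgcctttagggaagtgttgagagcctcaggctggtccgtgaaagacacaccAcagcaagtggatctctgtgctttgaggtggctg

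Promoters were found for 6 of the 7 genes of the Gm4340 cluster, and the pairs were 99.7% to 100% identical in global alignments, with 2 CG pairs in each. The 5 Fthl17 promoters were between 49% and 100% identical, had 8 or 9 CG pairs, and all 5 held TATAAA on either strand. Of the 6 symbols of the Zscan4 probe set, 3 had a promoter. These were 77.5% to 90.4% identical, had 3 or 4 CG pairs, and all 3 held TATAAA. Across the 8 promoters found for the Ott probe set identity ran from 57% to 100%, with 98.7% between Ott and Luzp4, and none held TATAAA. Over 32851 RefSeq promoters of the same length the median was 7 CG pairs, and 13.6% held TATAAA. The Gm4340 and Zscan4 promoters thus had fewer CG pairs than the median promoter and those of Fthl17 slightly more. A match to these letters is a description of the window and not a binding site.

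Across the 8 arrays the lower quartile of all values lay between 6.34 and 6.35 log2 units. In 27 members the WT mean lay under that level and in 7 the mean of every group did, so the size of a rise from there is uncertain. Kdm3a, the gene of JMJD1A, averaged 12.78 in WT and 12.81 in Jmjd1b-KO cells, against 4.98 in Jmjd1a-KO and 4.68 in double-KO cells. Kdm3b, that of JMJD1B, averaged 9.93 in WT and 9.88 in Jmjd1a-KO against 7.08 in Jmjd1b-KO and 7.36 in double-KO (arrays at 7.06 and 7.66). Another Kdm3b probe set held 7.58 on every array, so it was not among those measured. All 10 stem cell markers were above the lower quartile in every group, with a summed level of 15.3 to 15.9 on each array. The summed level of 12 fibroblast markers, of which 8 were measured, was 13.1 to 13.3 in WT, 11.9 to 12.5 in double-KO, 11.3 to 11.6 in Jmjd1a-KO and 10.3 to 10.4 in Jmjd1b-KO cells. The SD of the difference between replicates over the members was 0.26 in Jmjd1a-KO, 0.24 in double-KO, 0.18 in WT and 0.11 in Jmjd1b-KO.

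Levels and differences below are in log2 units, each difference is given with the standard error of the linear model, and a member was called when the adjusted p of limma, corrected over 11502 measured probe sets, was under 0.05. In double-KO against WT 75 members were higher and 61 lower, so 37.4% were called, against 46.5% of all measured probe sets (26.9% higher and 19.6% lower). In Jmjd1a-KO against WT 23 were higher and 33 lower, or 15.4%, against 17.8% of all (9.98% and 7.84%). In Jmjd1b-KO against WT 33 were higher and 27 lower, or 16.5%, against 23.9% of all (12.3% and 11.5%). Double-KO against Jmjd1a-KO called 61 higher and 28 lower, or 24.5%, against 28.9% (17% and 11.9%), and double-KO against Jmjd1b-KO called 77 higher and 68 lower, or 39.8%, against 50.1% (28.3% and 21.8%). In every comparison the members' share was below that of all measured probe sets. The direction of double-KO against WT moved with scaling: after each array was centred on its median, 60 members were higher and 102 lower. The number called moved with the error model. With flat probe sets in the fit it was 76 for double-KO, 16 for Jmjd1a-KO and 10 for Jmjd1b-KO against WT. In the same order that fit called 2376, 310 and 353 of the 11502 measured probe sets, to which all members belong. Over all probe sets, most of them flat, the shares were 7.16%, 1.72% and 1.82%. Leaving out 1 array changed the single knockout counts most. For Jmjd1a-KO against WT 11 members were called without WT replicate 1, 8 without WT replicate 2, 29 without Jmjd1a-KO replicate 1, 97 without Jmjd1a-KO replicate 2 and 28 without either Jmjd1b-KO array. For Jmjd1b-KO against WT 5 and 17 were called without WT replicate 1 and 2, and 6 and 2 without Jmjd1b-KO replicate 1 and 2. Double-KO against Jmjd1b-KO called 93 and 91 without Jmjd1b-KO replicate 1 and 2.

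**Figure D1:**
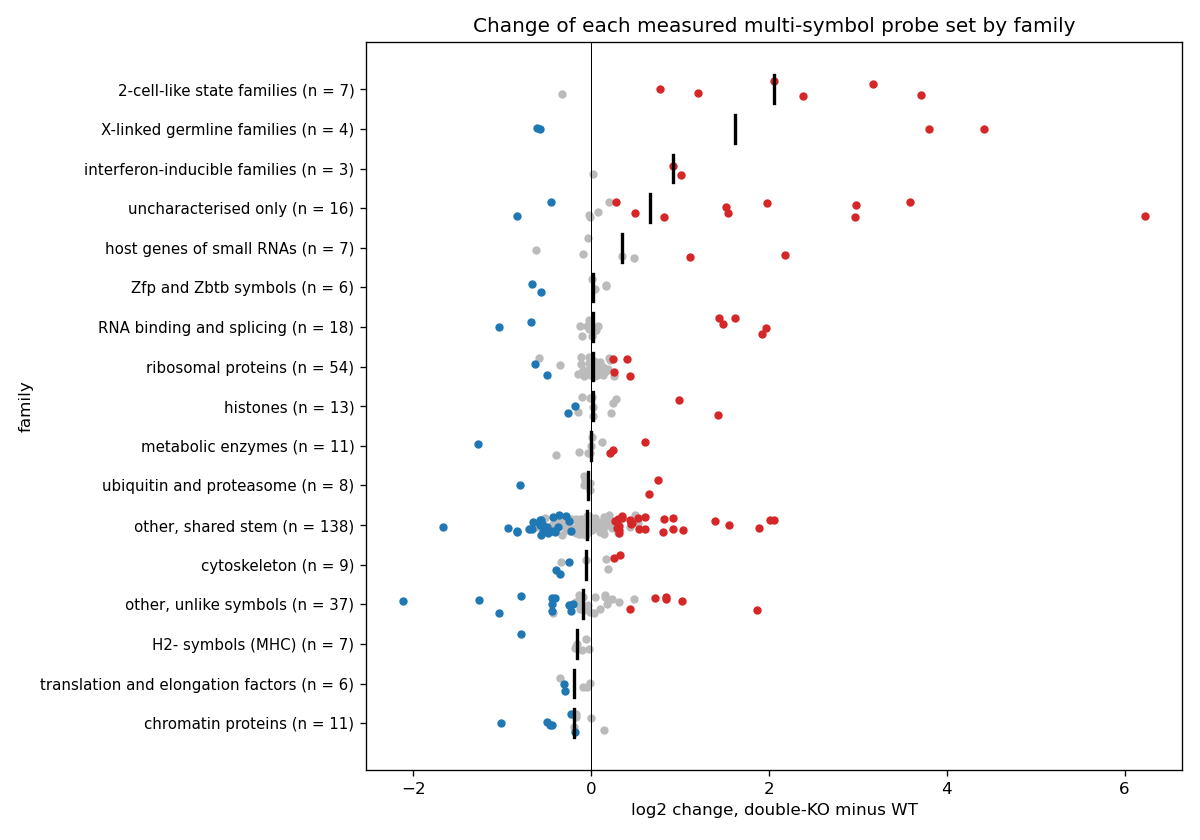
Log2 change of each member in double-KO minus WT, by family (rows, families with at least 3 members, with their number). Red and blue points were called higher and lower, grey points were not called, vertical spread within a row is only to separate points, and black bars are medians. The 2-cell-like row has its median at 2.06 and 6 of its 7 points in red, while the ribosomal protein row of 54 has its median at 0.02.

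The families known from the 2-cell embryo rose in double-KO and mostly not in the single knockouts. Of the 7 members of this group, 6 rose in double-KO and none fell, with a median difference of 2.06, against 3 higher and 3 lower of 12 probe sets with 1 symbol of the same name pattern and a median of 0.02 over all measured probe sets. The single-symbol rises were those of Usp17la (4.48), Tcstv1 (1.68) and Zfp352 (0.69). The single-symbol falls were those of Eif1ad (-1.12 and -0.39) and Pramel13 (-0.28), and the Eif1ax probe sets, which also fit the pattern, were not called. Shares over all measured probe sets were 26.9% higher and 19.6% lower. None of the 7 members was called in Jmjd1a-KO and 2 were higher in Jmjd1b-KO. The list was chosen with results for single-symbol genes of this kind known, so its direction is not independent evidence.

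The probe set for Gm4027, BB287469 and Eif1a, copies or relatives of the translation initiation factor gene Eif1a, read 6.25 and 6.06 in WT, 6.24 and 6.42 in Jmjd1a-KO, 6.47 and 6.20 in Jmjd1b-KO, and 10.07 and 9.65 in double-KO. Both double-KO arrays were above the 6 others, which overlapped. The difference from WT was 3.71 ± 0.17 (SE; adjusted p = 0.000164). A second Eif1a-like set on chromosome 12, Gm2022, Gm8300 and Gm5662, read 5.35 and 5.32 in WT, 5.40 and 5.49 in Jmjd1a-KO, 5.75 on both Jmjd1b-KO arrays, and 8.54 and 8.47 in double-KO. It rose by 3.17 ± 0.06 in double-KO (adjusted p = 1.22e-05), and its small rise of 0.42 in Jmjd1b-KO was lost when either WT or either Jmjd1b-KO array was left out (adjusted p up to 0.0752).

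Zscan4, a cluster of zinc finger genes that marks the 2-cell-like state, was read by a probe set that lists Zscan4a, Zscan4c, Zscan4d, Zscan4f and a pair of LOC symbols. It read 6.19 and 6.18 in WT, 6.02 and 5.81 in Jmjd1a-KO, 6.63 and 6.43 in Jmjd1b-KO, and 8.51 and 8.63 in double-KO. The double-KO arrays stood apart from all others, and the difference from WT was 2.39 ± 0.10 (adjusted p = 0.00014). Neither single knockout was called, with differences of -0.27 and 0.34. The Pramel genes, relatives of a human gene first found as a melanoma antigen, were read by 3 members. The X-linked Pramel3 set rose by 2.06 in double-KO and by 1.00 in Jmjd1b-KO, the latter lost without either WT or either Jmjd1b-KO array. The sets of Pramel42 and of Pramel34, with their uncharacterised copies on chromosome 5, rose by 1.21 and 0.78 in double-KO and were not called in either single knockout. Duxbl1, Duxbl2 and Duxbl3, double homeobox genes, were the exception, with 9.47 and 9.21 in WT, 9.06 and 8.97 in double-KO, and a difference of -0.33 that was not called (adjusted p = 0.23).

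The summed level of 7 trophoblast markers, of which 4 were measured, was 12.6 to 12.7 in double-KO, 11.3 to 11.4 in Jmjd1a-KO, 11.2 in Jmjd1b-KO and 10.0 to 10.2 in WT cells, with 1 gene under the lower quartile in each group. It was highest in the group in which the 2-cell families were highest, but its genes did not all follow that order. Tfap2c, the brightest of the 4 measured genes in every group, rose most, from a mean of 8.26 in WT to 12.15 in double-KO. Eomes (8.23) and Krt18 (9.69) were also highest in double-KO. Krt19 was higher with loss of Jmjd1b alone (9.05) than in double-KO (8.90). Krt18 (7.75) and Krt19 (7.06) were below WT (7.97 and 7.27) in Jmjd1a-KO cells. The part of the trophoblast sum in the rise of the 2-cell families was not tested. In bulk RNA, more cells of a type and more RNA per cell cannot be told apart.

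**Figure D2:**
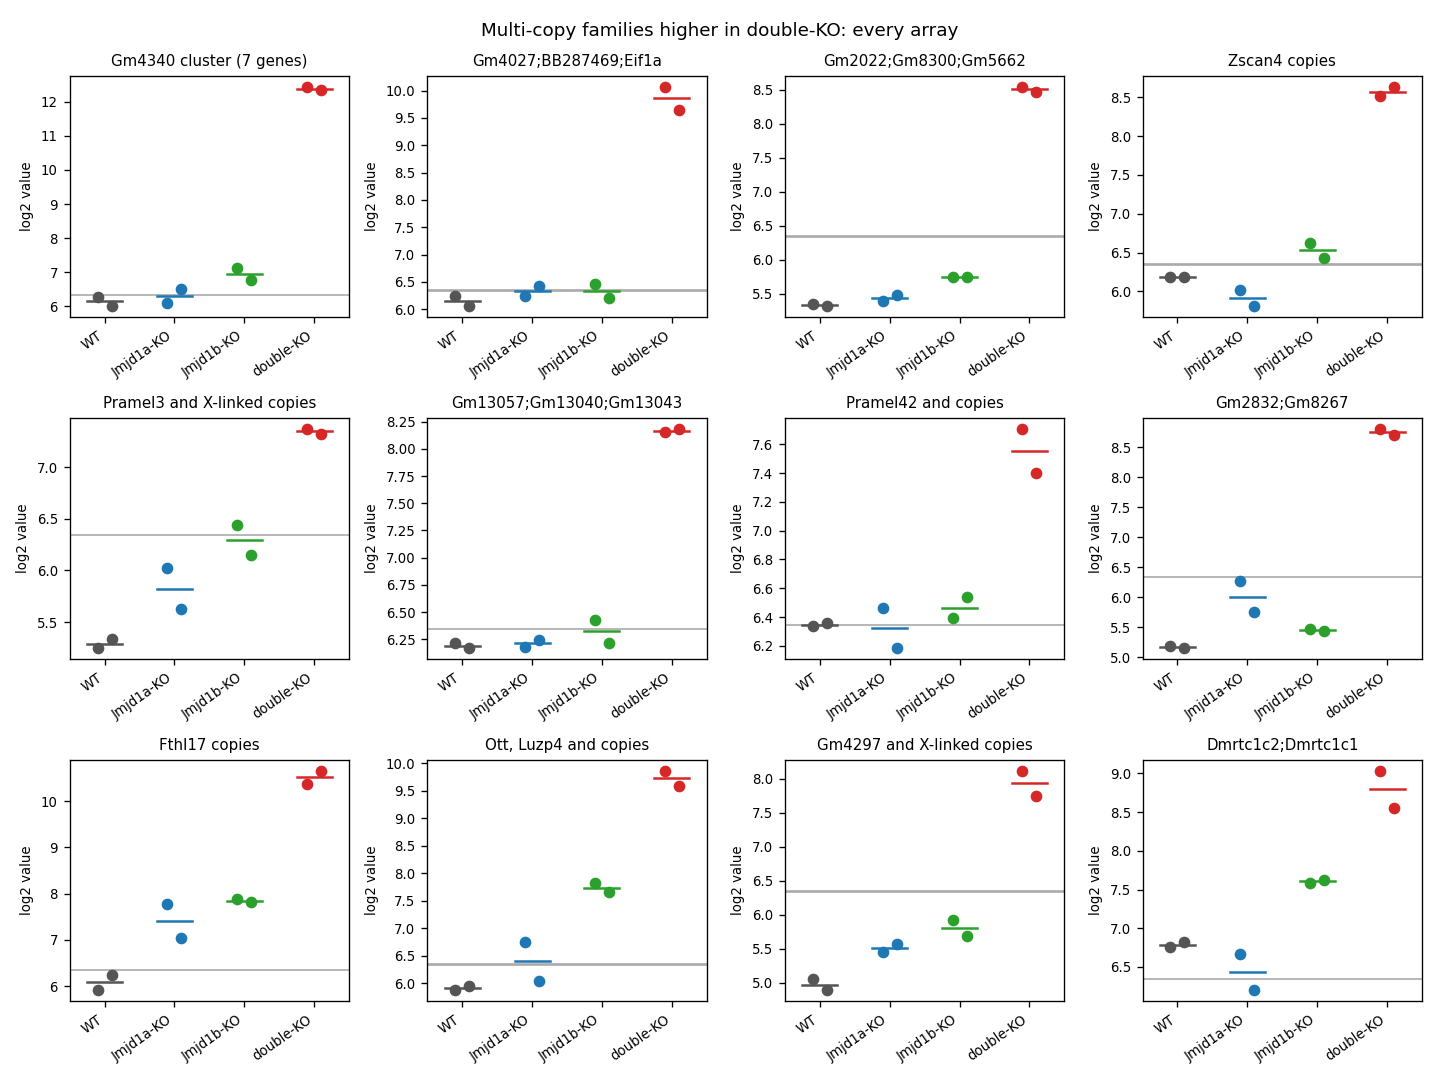
Log2 values of 12 members on every array (points) with group means (bars), by genotype; the grey band is the range of the arrays' lower quartiles. The double-KO points lie above all others in each panel. Jmjd1b-KO also lies above WT in several panels, among them Fthl17, Ott, Dmrtc1c, Pramel3, Gm4340, Gm2022, Zscan4 and Gm2832.

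Members with only uncharacterised symbols often rose in double-KO. Of the 17 such members, the Gm2022 set was counted above with the 2-cell families. Of the other 16, 10 rose and 2 fell, with a median of 0.66, against 44 higher and 52 lower of 221 single-symbol probe sets of that kind. All measured probe sets gave 26.9% higher and 19.6% lower. The largest rise of any member was that of a cluster of 7 neighbouring genes on chromosome 10, among them Gm4340, Gm21312 and Gm20765. The probe set read 6.29 and 6.01 in WT, 6.10 and 6.51 in Jmjd1a-KO, 7.11 and 6.78 in Jmjd1b-KO, and 12.43 and 12.33 in double-KO. Both double-KO arrays stood far above the others, Jmjd1b-KO came next, and WT and Jmjd1a-KO overlapped. The 6 promoters of the cluster, represented by that of Gm4340 above, were nearly the same sequence. The difference from WT was 6.23 ± 0.18 (adjusted p = 5.18e-05), and it was called without each of the 8 arrays in turn. The rise of 0.80 ± 0.18 in Jmjd1b-KO was lost without either WT or either Jmjd1b-KO array (adjusted p up to 0.154).

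The set of Gm2832 and Gm8267 on chromosome 14 read 5.18 and 5.16 in WT, 6.27 and 5.75 in Jmjd1a-KO, 5.47 and 5.43 in Jmjd1b-KO, and 8.81 and 8.71 in double-KO. Its double-KO arrays were the highest, Jmjd1a-KO came next, and WT was lowest. It rose by 3.59 ± 0.16 in double-KO and by 0.84 ± 0.16 in Jmjd1a-KO, the latter lost without either WT or either Jmjd1b-KO array (adjusted p up to 0.123). A pair of probe sets for 18 X-linked genes, among them Gm4297 and Gm5169 (Xmr, related to the meiosis gene family Xlr), rose by 2.96 ± 0.15 and 2.98 ± 0.17 in double-KO from WT means of 4.97 and 5.03. The 15 promoters found for these genes were 77.3% to 100% identical. Gm13057, Gm13040 and Gm13043 on chromosome 4 rose by 1.97 in double-KO, with single knockout differences of 0.02 and 0.13. The 2 members that fell were sets of Gm4724 and other genes on chromosome 2, by 0.84 and 0.45, while another set that listed Gm4724 differed by -0.01 and was not called. Of the 16, 2 rose in all 3 knockouts. The set of Gm2036 and 1810037I17Rik rose by 0.82 in double-KO, 0.93 in Jmjd1a-KO and 0.81 in Jmjd1b-KO, each lost in 3 or more of the 8 fits without 1 array, and the set of Gm9222, Gm5784 and 9030624G23Rik rose by 0.50, 0.47 and 0.42. The Gm13057, Gm4724 and Gm9222 sets, and the Pramel42, Pramel34 and Duxbl sets above, were chosen after their values were seen, as were the Cbx3, Tmed2, Prdx1 and large histone sets, H19, Mir17hg and Gas5 below.

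The X-linked germline families had only 4 members, which split in double-KO into a pair that rose and a pair that fell. Of 24 single-symbol probe sets of the same name pattern, 5 rose and 6 fell, with a median of -0.001. Over all measured probe sets 26.9% were higher and 19.6% lower. The rises below are thus those of single sets and not of the name pattern. Fthl17 genes encode ferritin-like proteins of the testis and early embryo. Their probe set, which lists Fthl17b, Fthl17c, Fthl17d, Fthl17e and Fthl17-ps1, read 5.92 and 6.25 in WT, 7.77 and 7.04 in Jmjd1a-KO, 7.88 and 7.81 in Jmjd1b-KO, and 10.37 and 10.65 in double-KO. WT was lowest on both arrays, Jmjd1a-KO and then Jmjd1b-KO lay in between, double-KO was highest, and no groups overlapped. It rose by 4.42 ± 0.25 in double-KO, 1.76 ± 0.25 in Jmjd1b-KO and 1.32 ± 0.25 in Jmjd1a-KO (adjusted p = 0.000251, 0.0104 and 0.0234). The Jmjd1a-KO call was lost without either WT or either Jmjd1b-KO array (adjusted p up to 0.112), the Jmjd1b-KO call without WT replicate 1 or either Jmjd1b-KO array (up to 0.0753), and the double-KO call was kept without each array.

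Ott, a testis-expressed X-linked gene, was read with Luzp4 and 7 uncharacterised neighbours. The values were 5.88 and 5.96 in WT, 6.76 and 6.05 in Jmjd1a-KO, 7.82 and 7.67 in Jmjd1b-KO, and 9.86 and 9.59 in double-KO. Jmjd1b-KO lay above WT and Jmjd1a-KO, and double-KO above all 3. The rise was 3.80 ± 0.23 in double-KO and 1.82 ± 0.23 in Jmjd1b-KO, while the difference of 0.48 in Jmjd1a-KO was not called. The Jmjd1b-KO rise was lost without WT replicate 1 or either Jmjd1b-KO array (adjusted p up to 0.0666).

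Xlr3 and Xlr4 genes, which encode lymphocyte-regulated nuclear proteins on the X chromosome, took another course. Xlr3a, Xlr3b and Xlr3c read 7.26 and 7.15 in WT, 5.59 and 5.69 in Jmjd1a-KO, 7.47 and 7.55 in Jmjd1b-KO, and 6.77 and 6.49 in double-KO. Xlr4a, Xlr4b and Xlr4c read 6.47 and 6.51 in WT, 5.47 and 5.50 in Jmjd1a-KO, 7.23 and 7.22 in Jmjd1b-KO, and 5.80 and 5.96 in double-KO. In both sets the order was the same, with Jmjd1b-KO highest, then WT, double-KO and Jmjd1a-KO, and no 2 groups overlapped. Xlr3 fell by 1.56 ± 0.11 in Jmjd1a-KO and by 0.57 ± 0.11 in double-KO, and Xlr4 fell by 1.00 ± 0.07 and 0.61 ± 0.07. In Jmjd1b-KO Xlr4 rose by 0.74 ± 0.07 (lost without Jmjd1b-KO replicate 2, adjusted p = 0.051), and Xlr3 differed by 0.31 with an adjusted p of 0.0815. Dmrtc1c1 and Dmrtc1c2, X-linked relatives of the sex-determining Dmrt genes, rose by 2.01 ± 0.20 in double-KO and by 0.82 ± 0.20 in Jmjd1b-KO, the latter lost without either WT or either Jmjd1b-KO array.

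In all, 19 members had every located gene on the X chromosome. In double-KO against WT 9 of them rose and 3 fell, with a median of 0.29, against 66 higher and 58 lower of the other 345 with a median of -0.01. The shares over all measured probe sets were 26.9% higher and 19.6% lower. In Jmjd1b-KO 6 of the 19 rose and none fell, against 27 higher and 27 lower of the 345, and 12.3% higher over all measured probe sets. In Jmjd1a-KO 2 of the 19 rose and 2 fell, against 21 higher and 31 lower of the 345, and the share of rises was near the 9.98% of all measured probe sets. The 19 overlap the families above, and the groups differed in line as well as genotype.

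Some symbols were read by several probe sets, which share the RNA samples but differ in their oligonucleotides. Snurf and Snrpn, overlapping genes of 1 imprinted transcript on chromosome 7 that encodes a splicing protein, had 5 members. All 5 rose in double-KO, by 1.44 to 1.97, and all 5 rose in Jmjd1a-KO, by 0.78 to 1.08, while none was called in Jmjd1b-KO (-0.41 to 0.09). The brightest read 10.53 and 10.46 in WT, 11.33 and 11.52 in Jmjd1a-KO, 10.39 and 10.72 in Jmjd1b-KO, and 12.04 and 11.92 in double-KO. Jmjd1b-KO overlapped WT, and the other groups did not. Of the 5 Jmjd1a-KO calls 4 were lost without either WT array, and 2 of these also without either Jmjd1b-KO array and others, and the double-KO calls were kept without each array. A Snrpn probe set with 1 symbol rose by 0.78 in double-KO and was not called in Jmjd1a-KO (0.39, adjusted p = 0.0618).

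Etv1, an ETS transcription factor, was listed with Gm5454 in 3 members, and all 3 rose in double-KO, but by 2.06, 1.89 and 0.35. The last of these had a WT mean under the lower quartile. The probe set that rose by 1.89 read 8.40 and 8.38 in WT, 8.81 and 8.54 in Jmjd1a-KO, 7.46 and 7.35 in Jmjd1b-KO, and 10.58 and 9.98 in double-KO. Jmjd1b-KO was lowest, with a fall of 0.98 ± 0.20 that was lost without either WT or either Jmjd1b-KO array. Hmgb1, an abundant DNA-bending chromatin protein, was listed with Gm21596 in 4 members that all fell in double-KO, by 1.01, 0.46, 0.44 and 0.23. The first of these read 11.54 and 11.55 in WT, 10.85 and 11.02 in Jmjd1a-KO, 11.46 and 11.44 in Jmjd1b-KO, and 10.51 and 10.55 in double-KO. Another Hmgb1 member with an added symbol fell by 0.49, lost without WT replicate 1 (adjusted p = 0.052). Cbx3, an HP1 protein that binds methylated lysine 9 of histone H3, had 3 members, of which 1 fell in double-KO, by 0.18. These 5 Hmgb1 falls and that of Cbx3 were the 6 falls among the 11 chromatin protein members, so the count is mostly that of 1 gene. None of the 11 rose and their median was -0.19, with 4 lower after quantile normalization and 8 after centring. Among 86 single-symbol probe sets of this pattern 17 rose and 17 fell, with a median of -0.02, and 19.6% of all measured probe sets fell.

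The next sets were lower in every knockout or did not move. Tmed2, a cargo receptor of the early secretory pathway, fell in double-KO in 5 of its 6 members by 0.37 to 0.57. In each single knockout 3 of the 6 were called lower. The 6 differences ran from -0.59 to -0.25 in Jmjd1a-KO and from -0.33 to -0.15 in Jmjd1b-KO. Sfi1, a centrosomal protein gene listed with a LOC copy, fell in Jmjd1a-KO in all 3 of its members by 0.77 to 1.16. All 3 were also below WT in Jmjd1b-KO (-0.73 to -0.52) and double-KO (-0.69 to -0.23), with 1 called in each. The 4 members of Prdx1, an antioxidant enzyme, differed by no more than 0.06 in any knockout and none was called. Over the 60 symbol combinations with 2 or more members (158 members), every member was called in 1 direction in 10 for double-KO against WT, some in 17 and none in 33. No combination had members called in opposite directions in any of the 3 knockouts.

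**Figure D3:**
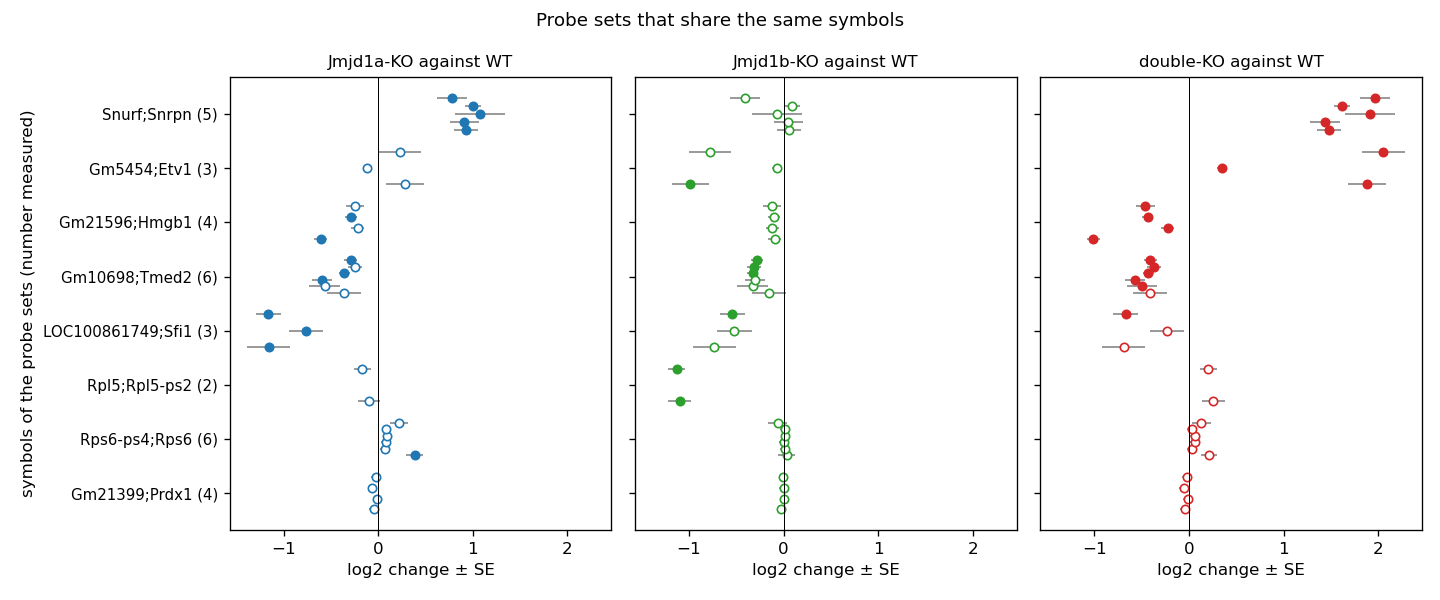
Log2 change against WT with its standard error for probe sets that share the same symbols (rows, with the number of probe sets), in Jmjd1a-KO, Jmjd1b-KO and double-KO. Filled points were called and open points were not. The 5 Snurf and Snrpn points lie right of 0 in Jmjd1a-KO and double-KO, the Rpl5 pair left of -1 in Jmjd1b-KO alone, and the 4 Prdx1 points near 0 throughout.

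Ribosomal protein genes were the largest named family, with 54 members, a median WT level of 13.20 and a median span of 0.14, against 0.52 over all members. In double-KO 4 rose and 2 fell, against 26.9% higher and 19.6% lower of all measured probe sets. The median was 0.02, which turned to -0.07 after centring, with 1 higher and 6 lower. Quantile normalization gave a median of -0.00. Rpl5, a protein of the large subunit, was the clearest exception. Its probe set read 9.50 and 9.63 in WT, 9.39 and 9.40 in Jmjd1a-KO, 8.47 and 8.40 in Jmjd1b-KO, and 9.87 and 9.66 in double-KO. It fell by 1.13 ± 0.09 in Jmjd1b-KO and a second Rpl5 probe set fell by 1.10 ± 0.12 (lost without either Jmjd1b-KO array or WT replicate 1), and neither was called in double-KO (0.20 and 0.26). Rpl31 fell by 0.83 ± 0.08 in Jmjd1b-KO and by 0.64 ± 0.08 in double-KO in 1 of its 4 members, while its other 3, brighter, differed by -0.14 to -0.08 and were not called.

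Histone members often read many copies at once, and 9 of 13 were not called in double-KO, where 26.9% of all measured probe sets rose and 19.6% fell. Of the others 2 rose and 2 fell, with a median of 0.02 over the 13 that turned to -0.03 after quantile normalization and -0.08 after centring, against 7 higher and none lower of 10 single-symbol histone probe sets, with a median of 1.07. The cluster members for H4 (13 symbols), H3 (12 symbols), H2B (11 symbols) and H2A (10 symbols) differed by 0.02, 0.02, 0.24 and 0.01 and were not called. Those that rose listed few copies. H2bc4, H2bc6 and H2bc8 read 7.78 and 7.97 in WT, 6.74 and 7.14 in Jmjd1a-KO, 7.80 and 7.84 in Jmjd1b-KO, and 9.80 and 8.80 in double-KO, so that double-KO was highest and Jmjd1a-KO lowest. The rise of 1.42 ± 0.32 in double-KO was lost without either WT array (adjusted p up to 0.078). H2bu2 and H2bu1-ps rose by 0.99 ± 0.08 in double-KO and by 0.76 ± 0.08 in Jmjd1a-KO, the latter lost without WT replicate 2.

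Immune families moved in several ways. Tgtp1 and Tgtp2, interferon-inducible GTPases, read 7.23 on both WT arrays, 5.95 and 5.98 in Jmjd1a-KO, 6.17 and 6.15 in Jmjd1b-KO, and 8.38 and 8.10 in double-KO. Both single knockouts were below WT and under the lower quartile, and double-KO was above WT. Tgtp fell by 1.27 ± 0.10 and 1.07 ± 0.10 and rose by 1.01 ± 0.10 in turn, and the Jmjd1b-KO fall was lost without Jmjd1b-KO replicate 2 (adjusted p = 0.051). Isg15, a ubiquitin-like protein induced by interferon, read 7.19 and 7.23 in WT, 6.72 and 6.81 in Jmjd1a-KO, 6.66 and 6.85 in Jmjd1b-KO, and 8.42 and 7.84 in double-KO. Double-KO was again above WT and the single knockouts, which overlapped each other, were below it. Its rise was 0.92 ± 0.19 in double-KO, which was lost without either WT array, and single knockout differences of -0.44 and -0.45 that were not called. Among single-symbol probe sets of this pattern 14 of 29 rose and 4 fell in double-KO, against 26.9% and 19.6% of all measured probe sets.

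Psme2, a subunit of the proteasome activator that serves antigen processing, read 10.87 and 11.14 in WT, 9.90 and 9.96 in Jmjd1a-KO, 10.46 and 10.69 in Jmjd1b-KO, and 11.90 and 11.41 in double-KO. It fell by 1.08 ± 0.18 in Jmjd1a-KO and rose by 0.65 ± 0.18 in double-KO, and the first call was lost without either WT array or Jmjd1a-KO replicate 1, the second without either WT array, either Jmjd1b-KO array or double-KO replicate 1. Of 7 members with H2- symbols, 5 list class I major histocompatibility genes and 2 the class II genes H2-DMb1 and H2-DMb2. Only the set of H2-T9, H2-T10 and H2-T22 was called in double-KO against WT, with 8.37 and 8.58 in WT, 7.47 and 7.45 in Jmjd1a-KO, 8.30 and 8.43 in Jmjd1b-KO, and 7.61 and 7.76 in double-KO. It fell by 0.79 ± 0.10 in double-KO and by 1.01 ± 0.10 in Jmjd1a-KO. Against Jmjd1b-KO 6 of the 7 were lower in double-KO, with a median of -0.38. In that comparison 2 of 6 single-symbol H2- probe sets were lower, with a median of -0.21, and 21.8% of all measured probe sets were lower.

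A small RNA was listed in 8 members, of which 7 were grouped as hosts and the other was a ribosomal protein gene, and these arrays read the long host RNA and not the mature small RNA. The host of the miR-290 to miR-295 cluster on chromosome 7, among the most abundant microRNAs of mouse embryonic stem cells, was listed as D7Ertd143e and Mir295. It read 7.954 and 7.003 in WT, 10.42 and 8.90 in Jmjd1a-KO, 8.31 and 8.36 in Jmjd1b-KO, and 9.72 and 9.60 in double-KO. All knockout arrays lay above both WT arrays, and the replicates of WT and of Jmjd1a-KO lay far apart. Jmjd1a-KO and double-KO both rose by 2.18 ± 0.53, and the first was lost in 7 and the second in 3 of the 8 fits without 1 array (adjusted p up to 0.192 and 0.0972). Mature microRNAs of this cluster are shown with bases 2 to 8, the seed that pairs with target messages, in capitals, because 3 of these 4 share 1 seed.
miR-290a-3p (chr7:3218674-3218697, plus strand): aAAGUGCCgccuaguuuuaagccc
miR-291a-3p (chr7:3218968-3218989, plus strand): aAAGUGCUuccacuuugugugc
miR-294-3p (chr7:3220691-3220712, plus strand): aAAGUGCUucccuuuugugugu
miR-295-3p (chr7:3220815-3220837, plus strand): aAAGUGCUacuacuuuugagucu

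The last 3 share the seed AAGUGCU, which 5 mature mouse microRNAs of the RefSeq table carry, and miR-290a-3p differs from it only in the last base of the seed. Kctd12, listed with Mir5130, was the other host that rose in double-KO, by 1.12 ± 0.21 from a WT mean under the lower quartile, a call lost without WT replicate 1 (adjusted p = 0.0517). H19, the imprinted host of miR-675, read 8.92 and 9.17 in WT and 9.97 and 9.09 in double-KO and was not called (0.48, adjusted p = 0.282). Mir17hg, the host of the miR-17 cluster, had WT arrays at 9.29 and 7.95 and was not called. Gas5, a snoRNA host, differed by -0.62 in double-KO (adjusted p = 0.0556).

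Among the members that fell in double-KO, several list neighbouring or overlapping genes and not copies. The largest fall was that of Trf, transferrin, listed with its neighbour Srprb. It read 8.35 and 8.48 in WT, 8.04 and 8.29 in Jmjd1a-KO, 7.60 and 7.53 in Jmjd1b-KO, and 6.15 and 6.45 in double-KO, so that double-KO lay below every other array. The fall was 2.11 ± 0.13. A probe set for Srprb alone differed by -0.08 and was not called. Cphx1, Cphx2 and Cphx3, homeobox genes of the preimplantation embryo, read 8.09 and 7.98 in WT, 6.56 and 6.99 in Jmjd1a-KO, 8.57 and 8.36 in Jmjd1b-KO, and 6.49 and 6.24 in double-KO. Both groups without Jmjd1a were low, with double-KO just under Jmjd1a-KO, and Jmjd1b-KO lay above WT. The fall was 1.67 ± 0.17 in double-KO and 1.26 ± 0.17 in Jmjd1a-KO (the latter lost without either WT array), and a second Cphx member fell by 0.54 in double-KO. Acot1 and Acot2, acyl-CoA thioesterases, fell by 1.28 ± 0.11 in double-KO, by 1.04 in Jmjd1a-KO (lost without WT replicate 2) and by 0.82 in Jmjd1b-KO (lost without either WT or either Jmjd1b-KO array), and a probe set for Acot1 alone fell by 1.15 in double-KO. Cers1 with Gdf1, a ceramide synthase and a growth factor read from 1 transcript, fell by 1.26 ± 0.11 in double-KO. Rbm3, a cold-induced RNA-binding protein, had WT arrays at 8.45 and 7.67, and fell by 1.62 ± 0.25 in Jmjd1b-KO and by 1.04 ± 0.25 in double-KO, lost without either array of the knockout group in each case. A brighter Rbm3 member was not called, with differences of -0.58 and 0.04.

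Members with unlike symbols did not always follow their single-symbol partners. Pald1 and Thbs1, genes on chromosomes 10 and 2, were listed for a probe set that read 8.91 and 8.85 in WT, 6.54 and 7.30 in Jmjd1a-KO, 5.64 and 5.18 in Jmjd1b-KO, and 10.08 and 8.63 in double-KO. Both single knockouts were below WT, and double-KO overlapped it. It fell by 1.96 ± 0.50 in Jmjd1a-KO and 3.47 ± 0.50 in Jmjd1b-KO, both lost without either WT or either Jmjd1b-KO array and the first also without Jmjd1a-KO replicate 1, and differed by 0.48 in double-KO. Thbs1, thrombospondin 1, had a probe set of its own with differences of -0.94, -1.38 (called) and 0.23 in the same order. Pald1 had one with -0.00, 0.42 (called) and 0.18, so it was higher in Jmjd1b-KO, where the joint probe set fell. The summed level of the fibroblast markers had the same order of the single knockouts, from 13.1 to 13.3 in WT to 10.3 to 10.4 in Jmjd1b-KO. Among the measured markers Thy1 alone did not, at 7.10 in WT, 6.94 in Jmjd1a-KO and 7.66 in Jmjd1b-KO. The part of these markers in the Thbs1 values was not tested. A probe set for Sgip1, Cog6 and Noct read 11.64 and 11.17 in WT, 12.29 and 11.50 in Jmjd1a-KO, 10.40 and 10.45 in Jmjd1b-KO, and 13.33 and 13.20 in double-KO. It rose by 1.86 ± 0.27 in double-KO, where Noct alone, the rhythmically expressed nocturnin gene, fell by 1.40 and Cog6 alone differed by 0.07.

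The interaction of the losses, which is the double-KO difference from Jmjd1a-KO minus the Jmjd1b-KO difference from WT, was called for 78 members (21.4%, against 24.9% of all), 53 above 0 and 25 below (background 13.9% and 11.1%). The count was 37 and 36 without WT replicate 1 and 2, 32 and 27 without Jmjd1b-KO replicate 1 and 2, and 48 without double-KO replicate 1. A value above 0 means that the double-KO difference from WT lay above the sum of the 2 single differences on the log2 scale. Where the single losses lowered a member, it can mean a smaller joint fall than that sum, or a level back near WT. A positive value is thus not always a stronger joint effect. Acot2 and Acot1, for example, fell in all knockouts and had 0.58. The largest was 5.91 ± 0.71 for Pald1 and Thbs1, followed by 5.28 ± 0.26 for the Gm4340 cluster, 3.35 ± 0.24 for Gm4027, BB287469 and Eif1a, and 3.35 ± 0.14 for Tgtp. The first and the last came with a fall in each single knockout, and the other pair with differences of 0.80 or less there. Below 0 the largest were Btg3, an antiproliferative gene, at -1.66 ± 0.28, and Cisd3, an iron-sulfur protein gene, at -1.26 ± 0.26. Btg3 read 10.42 and 10.36 in WT, 11.29 and 10.94 in Jmjd1a-KO, 11.17 and 11.29 in Jmjd1b-KO, and 10.02 and 10.58 in double-KO, so that the single knockouts lay above WT and double-KO overlapped it. The Btg3 interaction was lost without either WT array or Jmjd1b-KO replicate 2 (adjusted p up to 0.0603), and that of Cisd3 without either WT or either Jmjd1b-KO array (up to 0.0824).

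**Figure D4:**
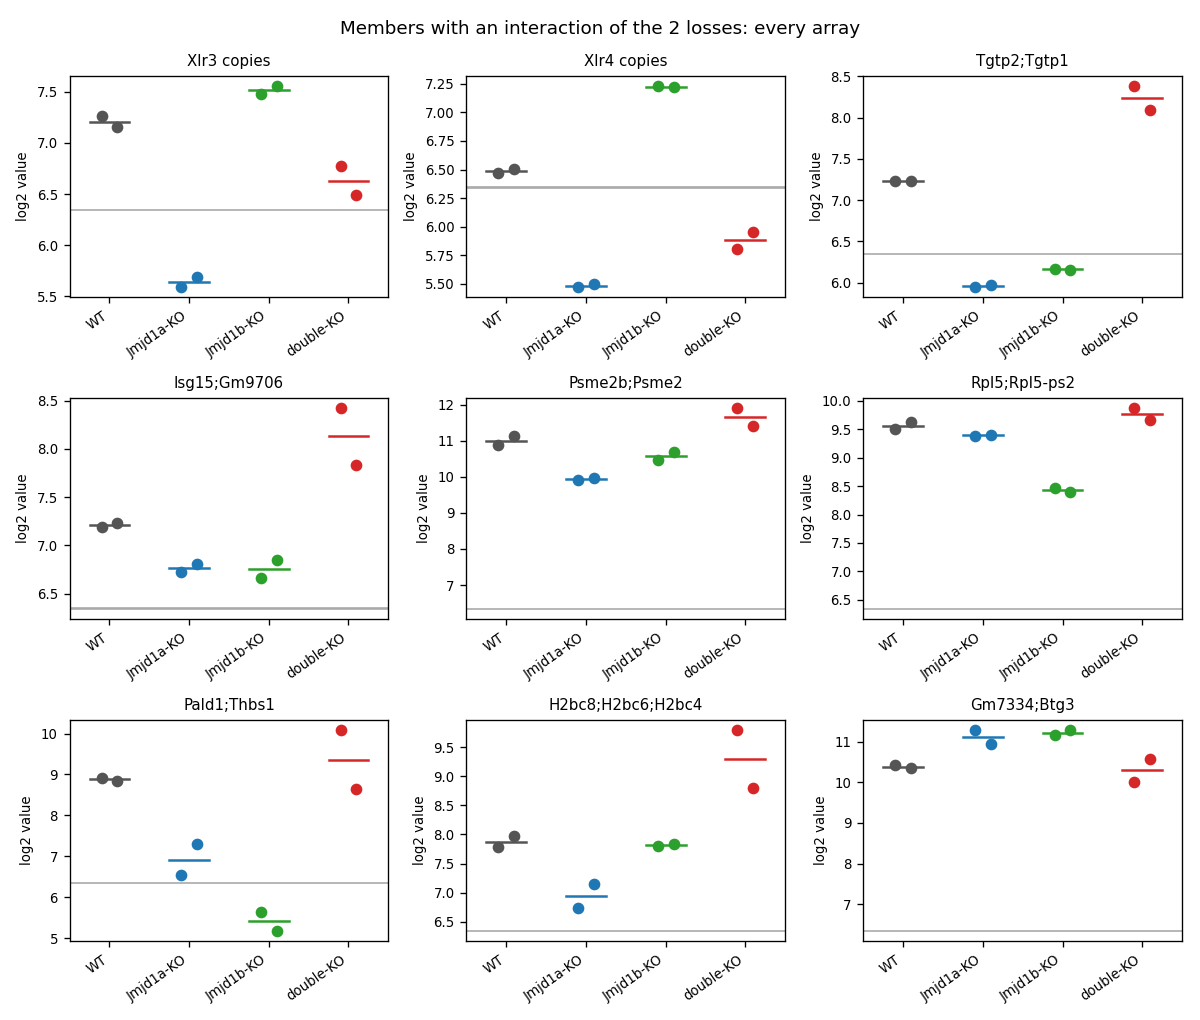
Log2 values on every array (points) with group means (bars) for 9 members with a called interaction of the losses, by genotype; the grey band is the range of the arrays' lower quartiles. In the Tgtp, Isg15, Psme2 and H2bc8 panels both double-KO points are the highest, the Rpl5 panel has only Jmjd1b-KO low, and the Btg3 panel has both single knockouts high.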

How the data were processed

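Total RNA (200 ng) from mouse embryonic stem cells of 4 genotypes was hybridised to 8 Affymetrix arrays, 2 per genotype. The values used are the authors' deposited log2 table, with 1 value per probe set and array. R 2.7.2 is the tool listed per the submitters' processing notes, which give no normalization method here. Among these values 74.5% of the 45101 probe sets spanned under 0.01, so a value that does not move may be set by the processing. Depth does not apply to arrays, and 2 per group limit the precision.

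The probe sets, families and gene lists were chosen with earlier results of these data known. Symbols came from the platform table, and chromosomes and promoters from RefSeq (GRCm38.p6), which held 680 of 710 gene IDs. Promoter identity came from global alignment, and motifs were searched on both strands. limma 3.58.1 in R 4.3.3 fitted the 4 group means over 11502 probe sets spanning at least 0.01, with Benjamini-Hochberg adjustment over all 11502. In simulated data for double-KO against WT over the 11502, 39.6%, 78.6% and 96% of changes of 0.5, 1 and 2 log2 units were recovered, with 4.31% false calls. The simulation changed only a small part of the probe sets and gave all groups the same spread. In the real comparison 46.5% were called, and the SD of replicate differences ran from 0.12 in Jmjd1b-KO to 0.35 in Jmjd1a-KO. Recovery and false calls in the real data may therefore differ from these values. P-values set each difference against a spread that the 4 groups share and that was estimated from these samples only.

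Named members were, among called members whose arrays did not overlap, the 10 largest rises and falls in each knockout against WT, the 5 for double-KO against each single knockout, the 5 interactions each way, and the 2 largest changes in double-KO in each family of 3 or more. Others were chosen after their values were seen. Alternatives were all probe sets in the fit, quantile normalization, centring, a trended robust error model, only the groups compared, the replicate block, array weights, a mean level of at least 7, a change of at least 1, and leaving out each array.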

Additional observations from a re-analysis of the deposited data

Results flagged for a closer look

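Named members whose response to loss of Jmjd1b differed with the Jmjd1a genotype are listed here by their interaction in log2 units (double-KO minus Jmjd1a-KO, minus the Jmjd1b-KO difference from WT), each past an adjusted p of 0.05 in limma. Groups of 2 arrays allowed no test for single outlying arrays.

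Families known from the 2-cell embryo and uncharacterised clusters had values of 5.28 for the Gm4340 cluster, 3.35 for Gm4027, BB287469 and Eif1a, 2.64 for Gm2022, Gm8300 and Gm5662, 2.46 for Gm2832 and Gm8267, and 2.31 for Zscan4. X-linked families had values of 1.59 and 1.92 for the Gm4297 pair, 1.54 for Dmrtc1c1 and Dmrtc1c2, 1.502 for Ott and Luzp4, 1.34 for Fthl17, 0.68 for Xlr3 and -0.34 for Xlr4. Xlr4 was thus the one X-linked set named here with a value below 0.

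Immune members had values of 3.35 for Tgtp, 2.16 for Psme2 and 1.81 for Isg15. Sets read by several probe sets had 2.59 and 2.61 for Etv1, 1.60 and 0.53 for Snurf and Snrpn, 1.501 and 1.45 for Rpl5, 1.03 and 1.20 for Sfi1, and 0.62 for Rpl31. Pald1 and Thbs1 had 5.91, H2bc8 and its copies 2.42, Sgip1, Cog6 and Noct 2.35, Lbhd1 0.71, Ubald2 0.64 and Acot2 and Acot1 0.58. Values below 0 were -1.66 for Btg3, -1.26 for Cisd3, -1.07 for Misp3, -1.01 for Trf and Srprb, -0.89 for Ass1, -0.88 for Gmfg, -0.84 for Cphx, -0.76 for Schip1 and -0.58 for Tomm5. Of these 39 values, 16 stayed past the threshold without each of the 8 arrays.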

How the results depend on the processing

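No called change of a named member turned sign under any alternative. The number of members called moved by more than 1.5 times under several. With every probe set in the fit the counts were 16 for Jmjd1a-KO, 10 for Jmjd1b-KO and 76 for double-KO against WT, 30 and 82 for double-KO against Jmjd1a-KO and Jmjd1b-KO, and 20 for the interaction. A change of at least 1 left 15, 10, 41, 32, 42 and 34 in that order. With only the groups compared 13 were called for Jmjd1a-KO and 117 for Jmjd1b-KO against WT and 28 for double-KO against Jmjd1a-KO, and the interaction has no such fit. Array weights gave 135 for Jmjd1b-KO against WT and 59 for double-KO against Jmjd1a-KO. Leaving out 1 array gave 8 to 97 for Jmjd1a-KO, 2 to 84 for Jmjd1b-KO and 91 to 167 for double-KO against WT, 61 to 88 and 91 to 164 for double-KO against the single knockouts, and 27 to 105 for the interaction. The cause was not tested, beyond there being fewer arrays or more probe sets in these fits.

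Centring changed the share of higher among called members in double-KO against WT from 55.1% to 37%, with 60 higher and 102 lower. Replicate numbers are shared between groups. The deviation of replicate 1 from its group mean was compared between groups over the measured probe sets. Correlations of these deviations, not of the array values, ran from -0.044 to 0.239, with no more than 2 pairs of arrays for any 2 groups. The labels do not say whether same-numbered samples were handled together, and so few arrays cannot decide it. The numbers were not used as pairs in the main fit. With the replicate block the counts were 51, 48, 127, 78, 142 and 69, each within 1.5 times.

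Of 252 called changes of 70 named members, 136 were kept without each array, among them 40 of 55 for double-KO, 7 of 29 for Jmjd1a-KO and 2 of 28 for Jmjd1b-KO against WT.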
